A study of Mus musculus with 18 samples.

Results

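The genes described are the RAB GTPases of membrane traffic in mouse pancreatic ductal adenocarcinoma cells. They were chosen by symbol alone, as every entry of the count table named Rab followed by a number and at most 1 letter, which leaves out their regulators and effectors. That rule found 59 genes among 24527 entries, and 53 of them passed the filter on low counts and could be tested. RNA was sequenced from 3 cell lines, PD454, PD7591 and PD883, each kept for 48 h with 2.5 µM ionomycin, with 10 ng/ml TGFb or with the vehicle DMSO. Ionomycin is an ionophore that carries calcium across membranes, and TGFb is a cytokine that drives epithelial-mesenchymal transition in many carcinoma cells. With 3 lines and 3 treatments there were 9 groups of 2 libraries, which gives 6 libraries per treatment and 18 in all. All groups grew in the same hormone-supplemented medium, which contained dexamethasone, insulin and cholera toxin, and the strain background of the lines is given as mixed. Nothing in the labels says whether the 2 libraries of a group came from separate cultures, so the p-values measure the spread between these libraries, which may be technical.

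RAB proteins are small GTPases that switch between a GTP-bound form on a membrane and a GDP-bound form held in the cytosol. In the GTP form they recruit tethers, motors and adaptors, and each RAB marks its own step of traffic, from the endoplasmic reticulum and Golgi to the surface, or from early endosomes to recycling endosomes or lysosomes. Secretory epithelia such as the pancreas are known for RAB3 and RAB27 proteins, which hold granules near the plasma membrane before regulated exocytosis.

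Library totals ran from 17591005 to 37894692 counts, so that the 3 counts taken as a floor amount to 0.0757 to 0.174 CPM (counts scaled to library size), and the RAB genes together took 0.303% to 0.420% of the counts. These floors, and the intervals given, cover no more than counting error. The 5 carcinoma epithelium markers summed to 4622 to 8500 CPM with ionomycin, 3388 to 6473 CPM with TGFb and 4280 to 7098 CPM with DMSO, with Epcam the lowest at 0.732 to 4.30 CPM over all libraries. Krt8 and Krt18 led these sums, and their TGFb and DMSO ranges overlapped. The other markers were lower with TGFb than in any DMSO library. Krt19 ran from 4.12 to 60.7 CPM with TGFb and 485 to 1746 CPM with DMSO. Cdh1 ran from 19.0 to 129 CPM and 522 to 781 CPM, and Epcam from 0.732 to 1.80 CPM and 2.00 to 3.45 CPM. The 6 fibroblast markers summed to 1.51 to 4.19 CPM with ionomycin, 6.97 to 101 CPM with TGFb and 2.02 to 5.82 CPM with DMSO, led by Col1a1. The 5 immune markers summed to 8.37 to 29.2 CPM with ionomycin, 2.54 to 3.75 CPM with TGFb and 3.27 to 5.87 CPM with DMSO; Cd68 held nearly all of it, and the pan-leukocyte gene Ptprc stayed at or under 0.274 CPM. The part of these lists in the RAB results was not tested. The acinar genes Cpa1, Pnlip and Ptf1a and the insulin genes Ins1 and Ins2 were at 0 in every library. The other acinar marker, Cela1, ran from 0.0538 to 1.10 CPM with ionomycin, 2.11 to 6.18 CPM with TGFb and 0.0436 to 1.41 CPM with DMSO. The 5 endocrine markers summed to at most 1.80 CPM in any library, led by Syp. The 4 endothelial markers summed to at most 2.79 CPM, with Cdh5 at up to 2.62 CPM with ionomycin. In 3 libraries, DMSO PD454 library 14, DMSO PD883 library 8 and TGFb PD883 library 12, counts leaned to short transcripts relative to the other libraries. There r was under -0.2 between log2 exon length and the log2 level less the mean of the gene over all 18 libraries. In bulk RNA, fewer cells expressing a gene and less RNA per cell cannot be told apart.

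Of the 59 genes, 6 did not pass the filter on low counts: Rab25, Rab33a, Rab37, Rab39, Rab44 and Rab9b. None was at 0 in all 18 libraries, so all were below detection by the filter and none was wholly unseen. Rab25, an epithelial relative of Rab11, had 56 counts over all 18 libraries and was at 0 in 2 of them, with 0 to 0.282 CPM with ionomycin, 0.0465 to 0.475 CPM with TGFb and 0.0436 to 0.228 CPM with DMSO. Rab33a, a Golgi member, had 46 counts, and Rab37, a member tied to secretory granules, had 29. Rab44, a large RAB with further domains, had 18 counts, of which 1 came from ionomycin libraries, 2 from TGFb libraries and 15 from DMSO libraries. Of these 15, DMSO PD454 library 14 alone held 13. Rab9b had 12 counts and Rab39 had 3, and these were at 0 in 10 and 16 of the 18 libraries.

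Set per kilobase of exon, levels in DMSO spanned a wide range. Rab7, the RAB that takes early endosomes to late endosomes and lysosomes, was the highest at 119 CPM per kb, followed by Rab5c and Rab2a at 98.6 each, Rab1a at 89.0, Rab14 at 83.9 and Rab1b at 83.1 CPM per kb. The same 6 genes were the highest with ionomycin, at 129.7 CPM per kb for Rab7, 120.3 for Rab2a, 105 for Rab5c, 91.7 for Rab1a, 86.4 for Rab14 and 69.7 for Rab1b. With TGFb, Rab10 at 64.5 CPM per kb came above Rab14 at 62.2. Among the genes tested, the lowest per kilobase in DMSO were Rab3c at 0.0380, Rab6b at 0.106 and Rab15 at 0.132 CPM per kb. The order is a description of mean levels; neighbours in it were not tested against each other, and exon lengths are those of all annotated transcripts together.

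**Figure D1:**
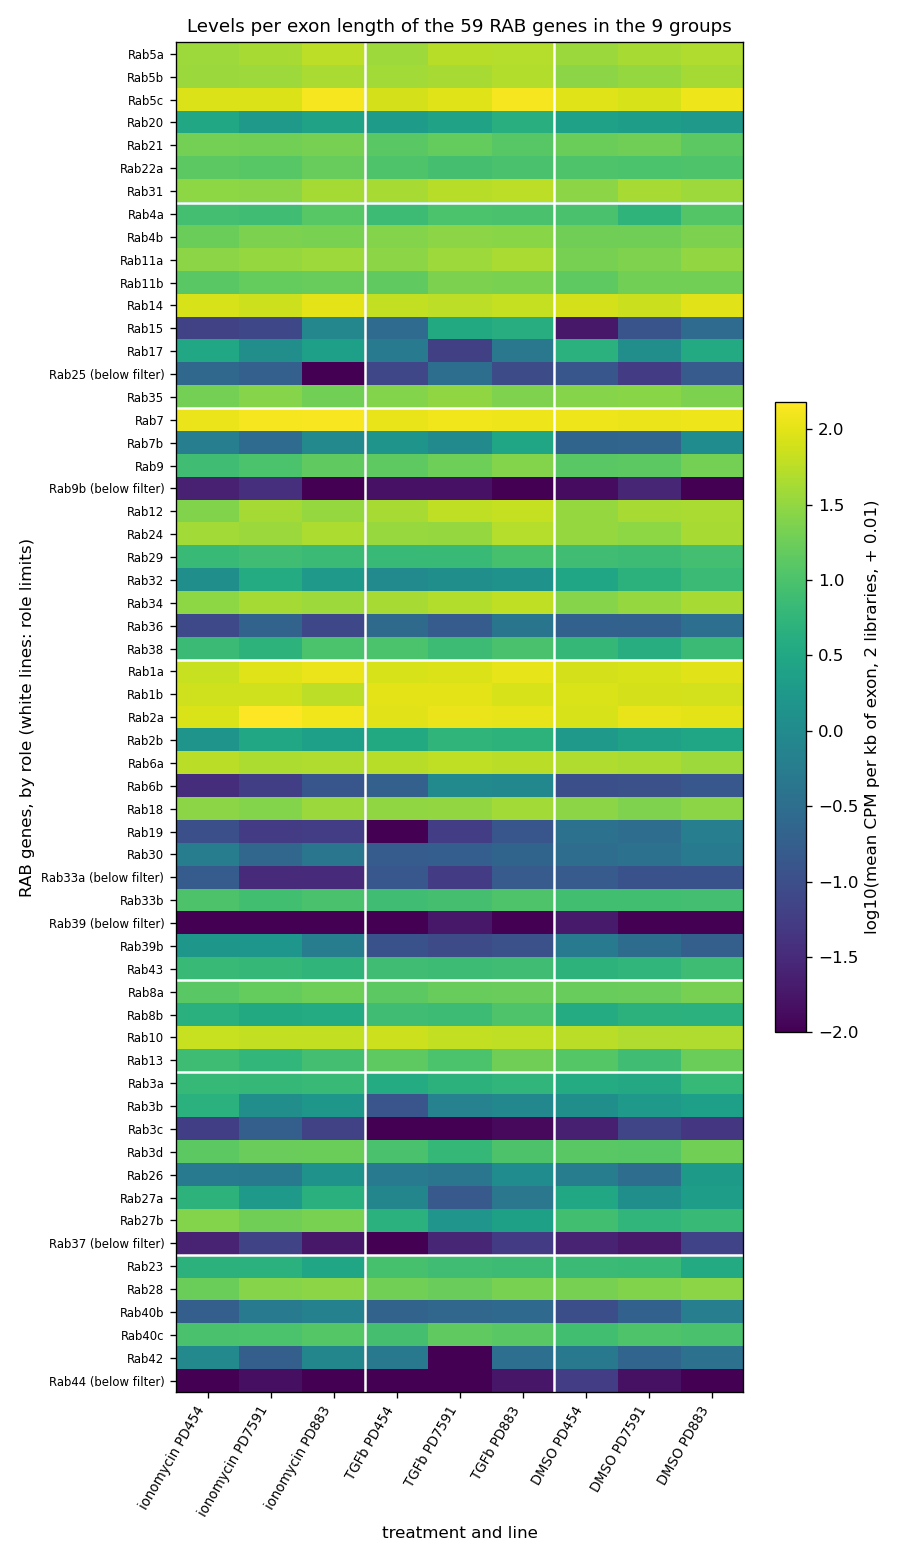
Level of the 59 RAB genes in the 9 groups, as log10 of mean CPM per kilobase of exon plus 0.01, with a column for each treatment and line (2 libraries each) and a row for each gene, grouped by role. Rab7, Rab5c, Rab2a and Rab1a are bright in every column, and the 6 genes below the filter are dark.

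Ionomycin was compared with DMSO over the 3 lines, with the line as a block. It changed RAB genes in both directions: Rab27b and Rab39b rose, Rab19 and Rab32 fell, and the other changes called were under 2-fold in size. In all, 9 of the 53 genes tested rose and 9 fell at an adjusted p under 0.05 (edgeR quasi-likelihood test, Benjamini-Hochberg over all genes). These 18 make 34.0%, against 33.3% of all 13827 genes tested (17.2% higher and 16.1% lower), so the family was called about as often as any gene. Its median log2 fold change was 0.11, against -0.03 over all genes. A log2 fold change of at least 1 in size was reached by 4 RAB genes called, against 9.76% of all genes. With the duplicates of each group summed, 6 of the 18 calls were made (Rab13, Rab19, Rab27b, Rab32, Rab39b and Rab9), and with no line term 7 RAB genes were called. In these fits 13.4% and 15.6% of all genes were called.

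TGFb was compared with DMSO in the same fit. It lowered Rab27a, Rab27b, Rab3b, Rab3c and Rab3d of regulated exocytosis together with Rab17, Rab19, Rab32, Rab39b and Rab30, and raised Rab15, Rab6b, Rab7b, Rab8b and Rab2b. In all, 19 of the 53 genes rose and 14 fell, which makes 62.3%, against 50.7% of all genes tested (24.3% higher and 26.5% lower). With duplicates summed 22 RAB genes were called, 12 higher and 10 lower, against 33.6% of all genes in that fit. With no line term 27 RAB genes were called, against 34.9% of all genes. Without the 3 libraries rich in short transcripts 27 of 53 were called, 17 higher and 10 lower, against 49.4% of all genes. In that fit the family was called about as often as any gene. Without PD454, PD7591 or PD883 the counts were 28, 25 and 29, against 47.9%, 37.5% and 45% of all genes. The median log2 fold change was 0.13, against -0.00 over all genes. A log2 fold change of at least 1 in size was reached by 12 RAB genes called, 3 higher and 9 lower, against 21.2% of all genes. Both treatments are set against the same DMSO libraries, so the 2 sets of fold changes are not independent of each other.

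**Figure D2:**
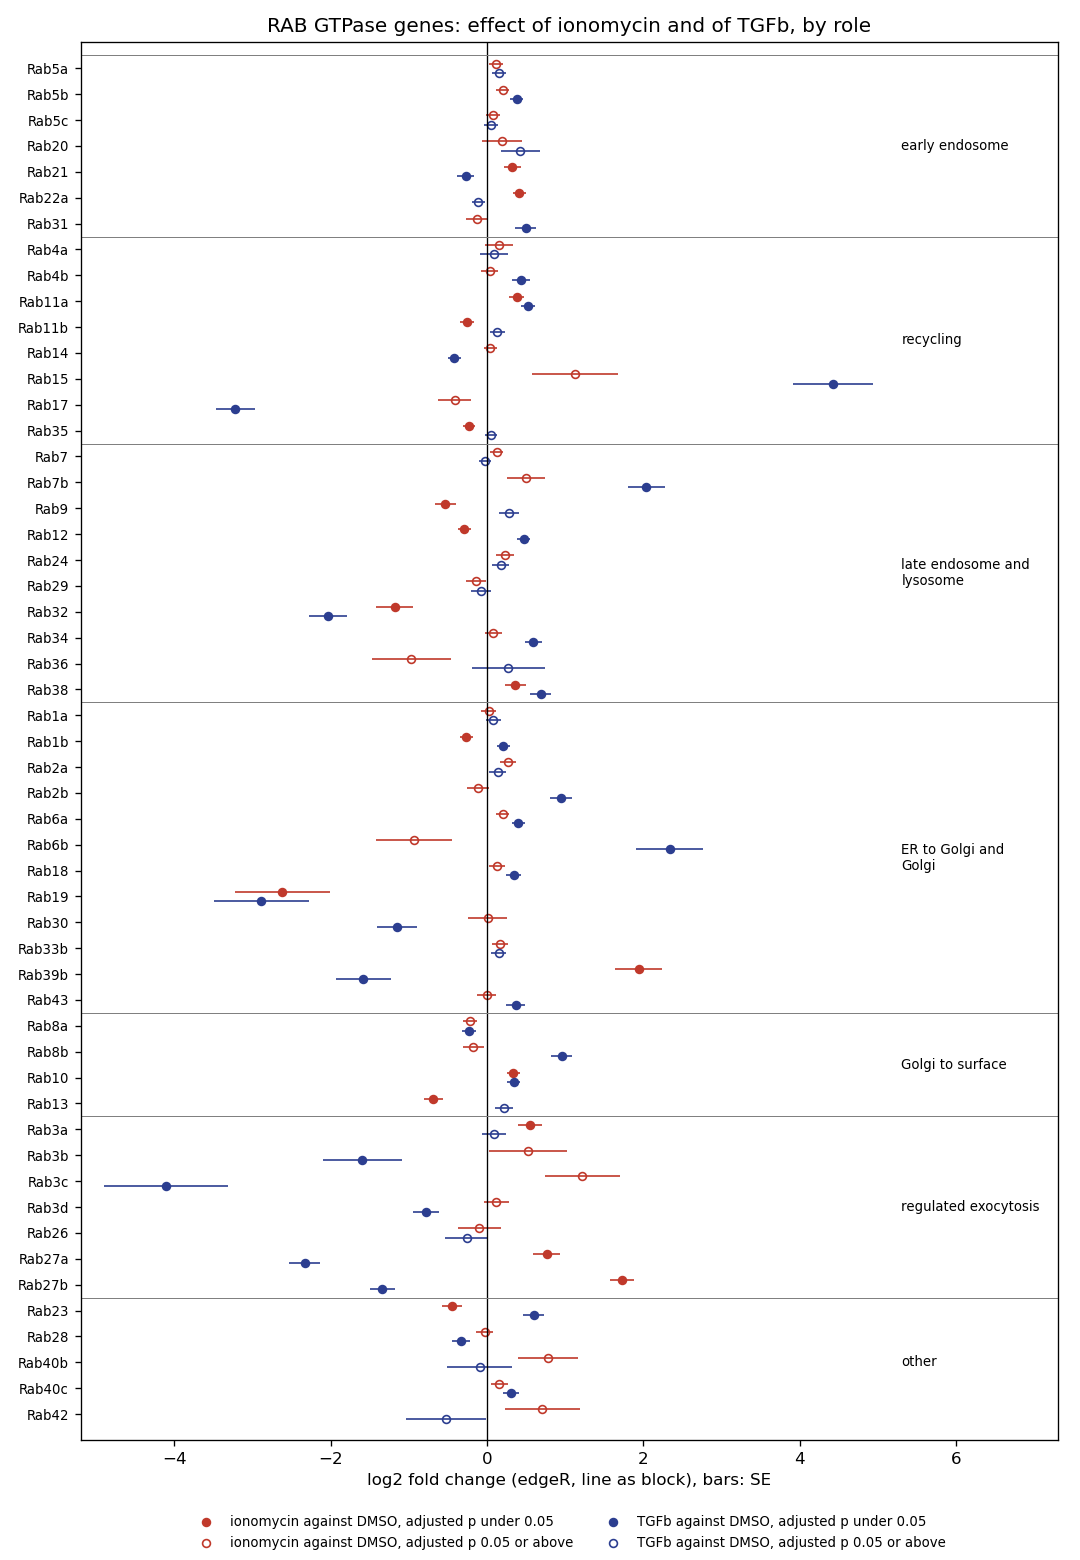
Log2 fold change and its SE for the 53 RAB genes tested, with ionomycin (red) and TGFb (blue) each against DMSO, grouped by role; filled points have an adjusted p under 0.05. In the regulated exocytosis block the called blue points lie left of 0, from Rab3d at -0.79 to Rab3c, and the called red points lie right of 0.

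Ionomycin was also set directly against TGFb. Here 15 RAB genes were higher with ionomycin and 18 lower, which makes 62.3%, against 62.9% of all genes tested (31% higher and 31.9% lower). A log2 difference of at least 1 in size was reached by 15 RAB genes called, against 27.7% of all genes. The regulated exocytosis genes stood at a median log2 difference of 2.12, with 6 of 7 higher with ionomycin and none lower, against a median of -0.04 over all genes. That median is the value of Rab3b itself, which was 0.80 without PD454, and the call of Rab3a was lost without that line (edgeR adjusted p = 0.161). The late endosome genes stood at a median of -0.42, with 1 higher and 6 lower of 10. The 1 higher, Rab32, was lost without PD7591. Of the 6 lower, Rab36 was called at -1.24 and Rab38 at -0.32, and single libraries decided both calls. Rab36 was lost in edgeR without ionomycin PD883 library 9 or 10, ionomycin PD454 library 15, TGFb PD883 library 11 or 12, or TGFb PD454 library 17 or 18 (adjusted p of 0.0580 to 0.100). Rab38 was lost in edgeR without ionomycin PD454 library 15 or 16, ionomycin PD7591 library 3 or 4, TGFb PD454 library 18 or TGFb PD7591 library 6 (adjusted p of 0.0638 to 0.117).

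The secretory RABs of regulated exocytosis were Rab3a, Rab3b, Rab3c, Rab3d, Rab26, Rab27a and Rab27b. With ionomycin 3 of these 7 rose and none fell, with a median log2 fold change of 0.55, where 17.2% of all genes rose and 16.1% fell. That median is the value of Rab3a itself, whose call was lost without PD454 and without PD7591. With duplicates summed, Rab27b alone of the 3 was called. With TGFb none rose and 5 fell, with a median of -1.34, where 24.3% of all genes rose and 26.5% fell. Over all genes tested these medians were -0.03 and -0.00.

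Rab27b, on the minus strand of chromosome 18 and known for docking secretory granules and multivesicular bodies at the plasma membrane, ran from 132 to 192 CPM with ionomycin (median 164), from 11.1 to 36.1 CPM with TGFb (median 17.7) and from 39.3 to 62.1 CPM with DMSO (median 49.95). The 3 treatments did not overlap: all 6 ionomycin libraries lay above all DMSO libraries, and all 6 TGFb libraries lay below them. Rab27b rose with ionomycin by a log2 fold change of 1.72 ± 0.16 (SE; edgeR adjusted p = 3.11e-07). It fell with TGFb by 1.34 ± 0.16 on the log2 scale (edgeR adjusted p = 1.16e-06). Set directly, ionomycin libraries stood above TGFb libraries by 3.06 ± 0.17 (edgeR adjusted p = 2.88e-11).

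Rab27a, the close relative that serves melanosomes, lytic granules and exosomes, lies at chr9:73044854-73097629 on the plus strand (mm10). It ran from 4.89 to 16.7 CPM with ionomycin (median 13.8), from 0.349 to 2.68 CPM with TGFb (median 1.42) and from 3.25 to 10.8 CPM with DMSO (median 6.77). TGFb libraries lay below every DMSO library, while ionomycin and DMSO libraries overlapped, with PD7591 low under both; within each line, both ionomycin libraries lay above both DMSO libraries. Rab27a rose with ionomycin by 0.76 ± 0.17 (edgeR adjusted p = 0.00258) and fell with TGFb by 2.34 ± 0.19 on the log2 scale (edgeR adjusted p = 1.19e-08). With duplicates summed the ionomycin call was lost (edgeR adjusted p = 0.0725). In DMSO the lines differed (edgeR joint test, adjusted p = 0.000868), with a log2 difference of -1.44 for PD7591 over PD454.

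The RAB3 genes encode the RABs of synaptic vesicles and hormone or zymogen granules. Rab3d, the form known from exocrine granules, ran from 51.2 to 74.5 CPM with ionomycin (median 61.8), from 22.1 to 49.7 CPM with TGFb (median 32.7) and from 43.5 to 92.3 CPM with DMSO (median 53.6). Ionomycin and DMSO libraries overlapped widely, and of the TGFb libraries only 1 reached the DMSO range. Rab3d fell with TGFb by 0.79 ± 0.17 on the log2 scale (edgeR adjusted p = 0.000632), and with ionomycin it had an adjusted p of 0.606 in edgeR. Rab3a ran from 9.89 to 13.2 CPM with ionomycin, 5.81 to 10.3 CPM with TGFb and 5.65 to 11.5 CPM with DMSO, and it rose with ionomycin by 0.55 ± 0.15 (edgeR adjusted p = 0.00988). That call was lost without PD454 (edgeR adjusted p = 0.106) and without PD7591 (0.0843).

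Rab3c was seen at low counts. With TGFb it had 2 counts in all, both in PD883 library 12, against 46 counts in the 6 DMSO libraries. The ratio of TGFb to DMSO, scaled to library size, was 0.0410, with an exact 95% counting interval from 0.00482 to 0.157 (edgeR adjusted p = 0.000282). With ionomycin it ran from 0.291 to 1.74 CPM and with DMSO from 0 to 0.872 CPM, with an adjusted p of 0.0580 in edgeR. Rab26, known from exocrine granules, had edgeR adjusted p values of 0.812 with ionomycin and 0.445 with TGFb, and its levels of 0.470 to 3.32 CPM with ionomycin, 1.00 to 2.88 CPM with TGFb and 0.693 to 4.85 CPM with DMSO overlapped.

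**Figure D3:**
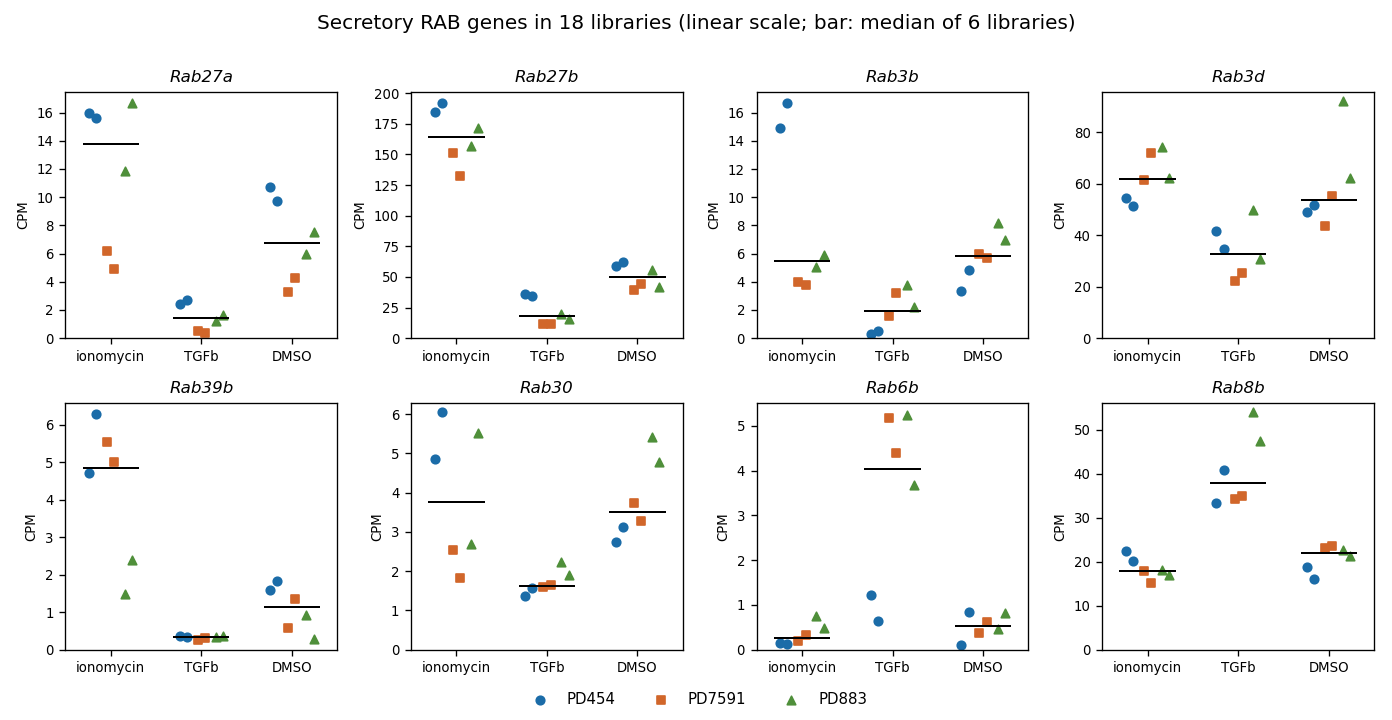
CPM of 8 secretory RAB genes in each of the 18 libraries, by treatment on a linear axis, with points coloured by line and a bar at the median of 6 libraries. Rab27b runs from 132 to 192 CPM with ionomycin, 11.1 to 36.1 CPM with TGFb and 39.3 to 62.1 CPM with DMSO, and Rab3b is high with ionomycin in PD454 alone of the 3 lines.

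Rab3b (chr4:108879063-108943324, plus strand, mm10) changed differently by line. With ionomycin its PD454 libraries had 14.9 and 16.7 CPM, against 3.35 and 4.87 CPM in PD454 with DMSO. In PD7591 it had 3.95 and 3.76 CPM with ionomycin, against 5.97 and 5.67 CPM with DMSO, and in PD883 5.02 and 5.91 CPM with ionomycin, against 8.21 and 6.998 CPM with DMSO. So the ionomycin libraries lay above DMSO in PD454 and below it in the other lines. Within PD454 it rose by 1.92 ± 0.30 (edgeR adjusted p = 0.000762), in a line where 21% of all genes were called, while PD7591 gave -0.59 ± 0.31 and PD883 -0.47 ± 0.30 (edgeR adjusted p = 0.216 and 0.292). The joint test that the ionomycin effect was equal in the 3 lines gave an adjusted p of 0.00962 in edgeR. It was the only RAB gene among 53 past that test, against 2.59% of all genes.

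With TGFb, Rab3b had 0.264 and 0.507 CPM in PD454, 1.58 and 3.19 CPM in PD7591 and 3.76 and 2.25 CPM in PD883. All but 1 of these lay below every DMSO library, and the exception lay below the DMSO libraries of its own line. Rab3b fell by 1.60 ± 0.50 on the log2 scale over the 3 lines (edgeR adjusted p = 0.0131). The call was lost with the 3 libraries rich in short transcripts left out (-1.63, edgeR adjusted p = 0.0518) and with duplicates summed (adjusted p = 0.151). The fold was -3.39 in PD454, -1.28 in PD7591 and -1.36 in PD883 on the log2 scale, and the joint test of equal effects gave an adjusted p of 0.0550 in edgeR.

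The effect of TGFb on Rab27b also differed between lines (edgeR joint test, adjusted p = 0.0264). PD454 had 36.1 and 34.1 CPM with TGFb, against 59.3 and 62.1 CPM with DMSO, a log2 fold change of -0.79 ± 0.16. PD7591 had 11.1 and 11.7 CPM with TGFb, against 39.3 and 44.3 CPM with DMSO, a log2 fold change of -1.87 ± 0.17. PD883 had 19.8 and 15.6 CPM with TGFb, against 55.6 and 41.8 CPM with DMSO, a log2 fold change of -1.46 ± 0.16. Rab27b was lower in every line, with the smallest change in PD454. The line dependence was not called without DMSO PD454 library 13 (adjusted p = 0.0656) or 14 (0.0754), DMSO PD7591 library 2 (0.0852), TGFb PD7591 library 5 (0.0860) or 6 (0.0704), or TGFb PD454 library 17 (0.102), all in edgeR.

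**Figure D4:**
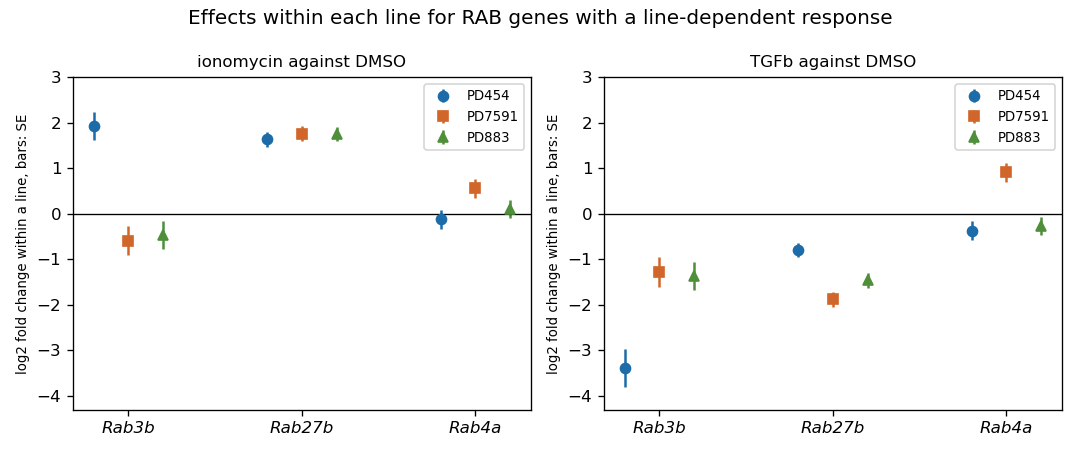
Log2 fold change within each line, with its SE, for ionomycin (left) and TGFb (right), of the 3 RAB genes whose response to at least 1 of them differed between lines. Rab3b stands at 1.92 with ionomycin in PD454 and Rab4a at 0.91 with TGFb in PD7591, in both cases with the other lines below 0.

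Of the 4 RABs that carry Golgi cargo to the surface, ionomycin raised 1 and lowered 1, and TGFb raised 2 and lowered 1. Over all genes 17.2% rose and 16.1% fell with ionomycin, and 24.3% rose and 26.5% fell with TGFb. Rab10, which serves basolateral delivery and glucose transporter traffic, ran from 206 to 246 CPM with ionomycin, 202 to 270.2 CPM with TGFb and 150.1 to 199 CPM with DMSO. Both treatments lay above every DMSO library. Rab10 rose by 0.33 ± 0.08 with ionomycin (edgeR adjusted p = 0.00399) and by 0.34 ± 0.08 with TGFb (0.00187), and ionomycin and TGFb libraries overlapped. With duplicates summed these edgeR adjusted p values were 0.0796 and 0.0541.

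Rab13, a RAB of tight junction delivery, ran from 9.08 to 14.6 CPM with ionomycin (median 12.6), 15.2 to 30.9 CPM with TGFb (median 23.0) and 12.6 to 31.5 CPM with DMSO (median 19.6). Ionomycin libraries lay below all TGFb libraries and overlapped the lowest DMSO libraries, which were those of PD7591. It fell with ionomycin by 0.69 ± 0.12 on the log2 scale (edgeR adjusted p = 0.000258). Rab8b, a RAB of exocytosis and cilium formation, ran from 15.1 to 22.3 CPM with ionomycin, 33.4 to 54.1 CPM with TGFb and 16.1 to 23.6 CPM with DMSO. Its TGFb libraries stood clear of both other treatments, and it rose with TGFb by 0.95 ± 0.13 (edgeR adjusted p = 8.93e-06). Its paralogue Rab8a ran from 55.9 to 85.9 CPM with ionomycin, 56.8 to 81.1 CPM with TGFb and 66.8 to 104 CPM with DMSO; it was called lower with TGFb (-0.23 ± 0.09, edgeR adjusted p = 0.0403). The Rab8a call was kept in 1 of 18 fits that left out a library (without DMSO PD7591 library 2), where leaving out any other gave edgeR adjusted p values of up to 0.160, and its log2 fold change was -0.12 once the libraries rich in short transcripts were dropped.

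Among the 12 RABs of the endoplasmic reticulum and Golgi that were tested, ionomycin raised 1 and lowered 2, and TGFb raised 6 and lowered 3. The shares over all genes were 17.2% up and 16.1% down with ionomycin, and 24.3% up and 26.5% down with TGFb. The abundant members of the core route had small fold changes. Rab1a, which tethers vesicles from the endoplasmic reticulum to the Golgi, ran from 177 to 331 CPM with ionomycin, 242 to 328 CPM with TGFb and 209 to 295 CPM with DMSO, with edgeR adjusted p values of 0.876 and 0.514 for ionomycin and TGFb against DMSO. Rab1b ran from 115 to 166 CPM with ionomycin, 166 to 216 CPM with TGFb and 148 to 191 CPM with DMSO. Rab1b was called in opposite directions, at -0.26 ± 0.08 with ionomycin (edgeR adjusted p = 0.0174) and 0.21 ± 0.08 with TGFb (0.0384). The ionomycin call was lost without DMSO PD883 library 8 (0.0634), and the TGFb call without DMSO PD454 library 13 (0.0604), DMSO PD7591 library 2 (0.0722) or TGFb PD7591 library 6 (0.0623). Rab2a, a RAB of the Golgi and of lysosome fusion, ran from 170.2 to 364 CPM with ionomycin, 202 to 249 CPM with TGFb and 163 to 253 CPM with DMSO, with edgeR adjusted p values of 0.0525 and 0.293 for ionomycin and TGFb.

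Rab6a, the main RAB of retrograde traffic through the Golgi, ran from 153 to 193 CPM with ionomycin, 180.1 to 211 CPM with TGFb and 125 to 174 CPM with DMSO. TGFb libraries lay above every DMSO library, and it rose with TGFb by 0.40 ± 0.09 (edgeR adjusted p = 0.000854). Annotated exons of Mrpl48 on the other strand cover 11.7% of those of Rab6a, so its reads may be shared. Its paralogue Rab6b, best known from neurons, ran from 0.116 to 0.746 CPM with ionomycin (median 0.255), 0.646 to 5.25 CPM with TGFb (median 4.03) and 0.110 to 0.841 CPM with DMSO (median 0.533). PD7591 and PD883 with TGFb stood above all other libraries, while PD454 with TGFb had 1.21 and 0.646 CPM, against 0.110 and 0.841 CPM with DMSO. Rab6b rose with TGFb by 2.34 ± 0.43 (edgeR adjusted p = 0.000157). Over all TGFb libraries Rab6a still stood at 56.9 CPM per kb and Rab6b at 0.674 CPM per kb.

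Rab39b (chrX:75572046-75578231, minus strand, mm10), a Golgi-linked RAB best known from neurons, had the largest rise with ionomycin among the RAB genes called. It ran from 1.49 to 6.28 CPM with ionomycin (median 4.86), 0.264 to 0.369 CPM with TGFb (median 0.324) and 0.273 to 1.83 CPM with DMSO (median 1.13). All ionomycin libraries lay above all TGFb libraries, and only PD883 library 9 with ionomycin, at 1.49 CPM, reached down to the DMSO range, whose top was set by PD454. It rose with ionomycin by 1.94 ± 0.30 (edgeR adjusted p = 9.81e-05) and fell with TGFb by 1.58 ± 0.35 on the log2 scale (0.00107). The TGFb call was lost without PD454 (-1.19, edgeR adjusted p = 0.0558). Annotated exons of the antisense gene Gm15063 cover 18.6% of those of Rab39b, and without a stated strand setting the reads of the pair cannot be told apart.

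Rab19, a Golgi-associated RAB, was the RAB gene with the largest fall under ionomycin and was seen at low counts. It ran from 0 to 0.185 CPM with ionomycin, 0 to 0.279 CPM with TGFb and 0.213 to 1.03 CPM with DMSO. Ionomycin libraries lay below every DMSO library, and 1 TGFb library of PD883 reached into the DMSO range. It fell by 2.62 ± 0.61 with ionomycin (edgeR adjusted p = 0.00306) and by 2.89 ± 0.61 with TGFb (0.000662) on the log2 scale. Rab30, which holds the Golgi stack together, ran from 1.83 to 6.05 CPM with ionomycin, 1.37 to 2.23 CPM with TGFb and 2.74 to 5.42 CPM with DMSO. Its TGFb libraries lay below every DMSO library, and it fell with TGFb by 1.15 ± 0.25 on the log2 scale (edgeR adjusted p = 0.000860).

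The other endoplasmic reticulum and Golgi members called were Rab2b, Rab18 and Rab43, all higher with TGFb. Rab18, a RAB of the endoplasmic reticulum and lipid droplets, ran from 186.8 to 285 CPM with TGFb, against 155.6 to 206 CPM with DMSO, and rose by 0.34 ± 0.10 (edgeR adjusted p = 0.00806), lost without PD7591 (0.0928). Rab2b ran from 9.34 to 15.8 CPM with TGFb, against 4.77 to 8.68 CPM with DMSO, with no overlap, and rose by 0.94 ± 0.14 (edgeR adjusted p = 1.82e-05). Annotated exons of the opposite-strand entry Gm43766 cover 70.9% of those of Rab2b, so its reads may be shared. Rab43 ran from 39.0 to 46.7 CPM with TGFb, against 26.6 to 46.5 CPM with DMSO, and rose by 0.37 ± 0.12 (edgeR adjusted p = 0.0163), which was 0.22 without PD454 (0.201), and the call was also lost without PD7591 (0.123) or the libraries rich in short transcripts (0.0565). Its exons share 77.3% of their length with the same-strand entry Gm45140, so reads over both may be lost or assigned to either entry. Rab33b, a Golgi and autophagy RAB, ran from 28.1 to 38.8 CPM with ionomycin, 25.97 to 38.4 CPM with TGFb and 27.0 to 31.7 CPM with DMSO and passed neither test, with edgeR adjusted p values of 0.228 and 0.242. The opposite-strand entry Gm38160 covers 17.6% of its annotated exons, so its reads may be shared.

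Of the 8 recycling RABs tested, ionomycin raised 1 and lowered 2, with a median log2 fold change of 0.04, and TGFb raised 3 and lowered 2, with a median of 0.11. Among all genes 17.2% rose and 16.1% fell with ionomycin, and 24.3% rose and 26.5% fell with TGFb. Rab15 rose and Rab17 fell by far more than the core recycling genes. Rab17 (chr1:90958133-90969661, minus strand, mm10), an epithelial RAB of apical recycling, ran from 1.74 to 7.04 CPM with ionomycin (median 4.56), 0.0996 to 1.11 CPM with TGFb (median 0.865) and 1.74 to 10.2 CPM with DMSO (median 7.16). All TGFb libraries lay below all others. Rab17 fell with TGFb by 3.22 ± 0.25 on the log2 scale (edgeR adjusted p = 4.79e-09), and the edgeR adjusted p with ionomycin was 0.144. In DMSO the lines differed (edgeR joint test, adjusted p = 0.000190), with PD7591 at 2.88 and 1.74 CPM, PD454 at 8.23 and 10.2 CPM and PD883 at 7.18 and 7.13 CPM.

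Rab15 (chr12:76797960-76822908, minus strand, mm10), a RAB of early and recycling endosomes, ran from 0.0462 to 3.88 CPM with ionomycin (median 0.336), 0.739 to 14.5 CPM with TGFb (median 12.54) and 0 to 1.14 CPM with DMSO (median 0.402). The lines set the overlap: PD454 with TGFb had 0.739 and 1.29 CPM, against 0 and 0.0601 CPM in PD454 with DMSO. In PD7591 it had 12.9 and 12.2 CPM with TGFb, against 0.107 and 0.698 CPM with DMSO, and in PD883 14.2 and 14.5 CPM with TGFb, against 1.14 and 0.863 CPM with DMSO. Within every line both TGFb libraries lay above both DMSO libraries. Rab15 rose with TGFb by 4.42 ± 0.51 (edgeR adjusted p = 8.14e-07), the largest rise among the RAB genes, and with ionomycin the edgeR adjusted p was 0.122.

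Rab11a, the RAB of the perinuclear recycling endosome, ran from 64.9 to 90.0 CPM with ionomycin (median 76.9), 58.0 to 105 CPM with TGFb (median 87.9) and 42.4 to 75.9 CPM with DMSO (median 56.1). The treatments overlapped, and PD883 was the highest line under each. Rab11a rose with ionomycin by 0.38 ± 0.09 (edgeR adjusted p = 0.00430) and with TGFb by 0.53 ± 0.09 (0.000106). The ionomycin call was lost without PD7591 (edgeR adjusted p = 0.0704). Its paralogue Rab11b ran from 77.1 to 105 CPM with ionomycin (median 87.6), 76.3 to 141 CPM with TGFb (median 131) and 84.0 to 131 CPM with DMSO (median 115). It was called lower with ionomycin at -0.26 ± 0.10 (edgeR adjusted p = 0.0445), a call kept in only 3 of the 18 fits that left out a library (without DMSO PD883 library 7, ionomycin PD454 library 16 or TGFb PD454 library 17), with edgeR adjusted p values from 0.0323 to 0.134.

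Rab4a and Rab4b serve rapid recycling from early endosomes. Rab4a (chr8:123805985-123835287, plus strand, mm10) ran from 13.6 to 25.6 CPM with ionomycin, 12.51 to 19.2 CPM with TGFb and 8.03 to 22.9 CPM with DMSO, and over the 3 lines neither treatment passed the test (edgeR adjusted p = 0.538 with ionomycin and 0.724 with TGFb). The TGFb effect differed between lines (edgeR joint test, adjusted p = 0.0263). PD7591 had 19.2 and 15.6 CPM with TGFb, against 10.5 and 8.03 CPM with DMSO, and rose by 0.91 ± 0.21 (edgeR adjusted p = 0.00326), where 37.8% of all genes were called. PD454 had 12.51 and 12.96 CPM with TGFb, against 16.4 and 16.6 CPM with DMSO, and PD883 18.8 and 15.02 CPM with TGFb, against 17.8 and 22.9 CPM with DMSO; their log2 fold changes of -0.37 and -0.27 did not pass. The line dependence was not called without DMSO PD7591 library 2 (edgeR adjusted p = 0.141), TGFb PD7591 library 5 (0.124), TGFb PD454 library 17 (0.0588) or the libraries rich in short transcripts (0.0719). With Rab27b, this made 2 of 53 RAB genes with a line-dependent TGFb effect, against 5.26% of all genes.

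Rab4b ran from 18.02 to 29.6 CPM with ionomycin, 27.6 to 34.4 CPM with TGFb and 20.7 to 30.5 CPM with DMSO. Only PD883 with DMSO, at 30.5 CPM in library 8, reached the TGFb range. Rab4b rose with TGFb by 0.43 ± 0.11 (edgeR adjusted p = 0.00293), which was lost without PD7591 (0.0701). Annotated exons of the same-strand entry Gm21983 cover 85.2% of those of Rab4b, so reads over both may be lost or assigned to either entry. Rab14, which runs between the Golgi and endosomes, ran from 213 to 353 CPM with ionomycin, 179.7 to 205 CPM with TGFb and 211 to 320.2 CPM with DMSO. TGFb libraries lay below all others, and Rab14 fell with TGFb by 0.42 ± 0.09 on the log2 scale (edgeR adjusted p = 0.000489), with 0.729 for ionomycin.

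Rab35, a RAB of fast recycling to the surface, ran from 51.7 to 75.2 CPM with ionomycin, 60.4 to 87.4 CPM with TGFb and 60.4 to 79.4 CPM with DMSO. It was called lower with ionomycin at -0.24 ± 0.08 (edgeR adjusted p = 0.0278). That call was lost without DMSO PD454 library 13 (0.0675) or 14 (0.0754), DMSO PD883 library 8 (0.0884), ionomycin PD454 library 15 (0.0577) or 16 (0.0924), ionomycin PD7591 library 3 (0.0549) or ionomycin PD883 library 9 (0.0688), all in edgeR.

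**Figure D5:**
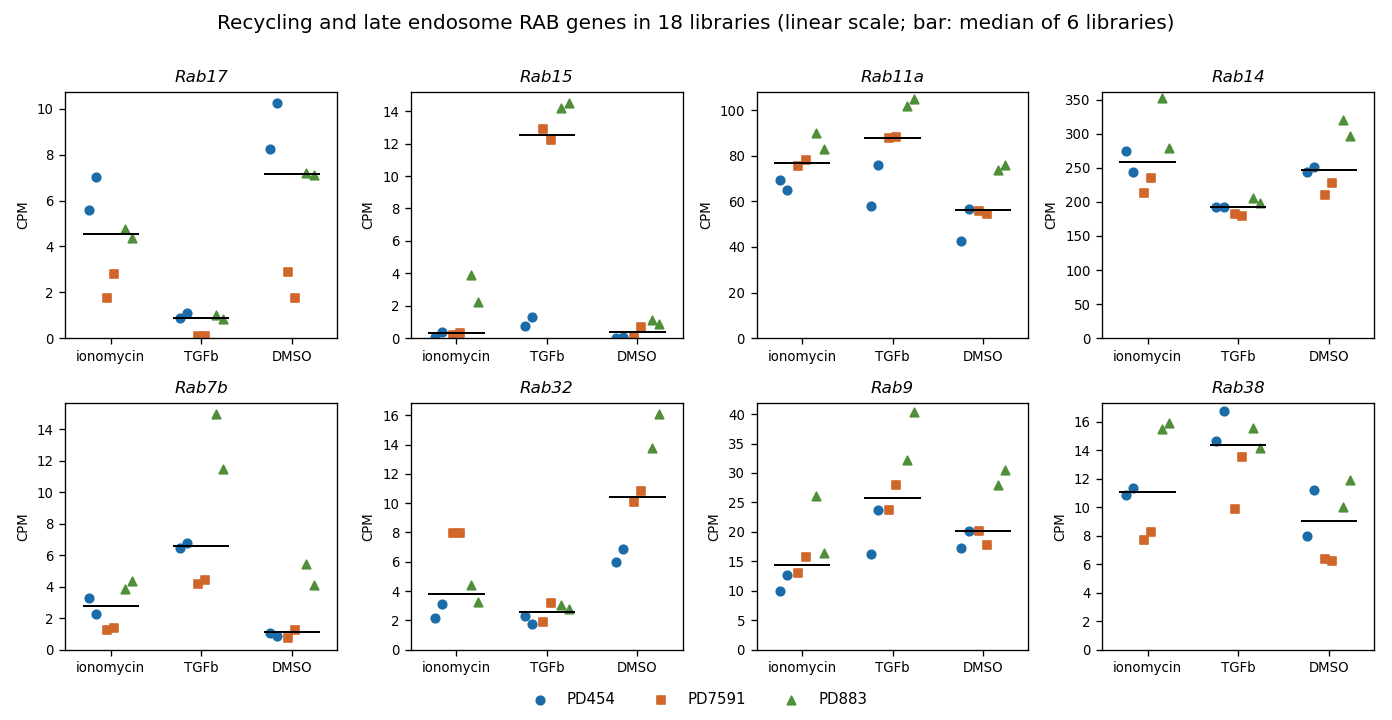
CPM of 8 recycling and late endosome RAB genes in each of the 18 libraries, by treatment on a linear axis, with points coloured by line and a bar at the median of 6 libraries. Rab17 stays at or under 1.11 CPM with TGFb, Rab15 reaches 14.5 CPM with TGFb in PD883, and Rab32 lies between 5.98 and 16.1 CPM with DMSO, above every TGFb library.

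Of the 10 late endosome and lysosome RABs tested, ionomycin raised 1 and lowered 3, with a median log2 fold change of -0.03, and TGFb raised 4 and lowered 1, with a median of 0.28. The shares over all genes were 17.2% up and 16.1% down with ionomycin, and 24.3% up and 26.5% down with TGFb. Rab7, the most abundant RAB per kilobase, ran from 294 to 391 CPM with ionomycin (median 339), 284 to 328 CPM with TGFb (median 306) and 284 to 343 CPM with DMSO (median 303). The treatments overlapped, with edgeR adjusted p values of 0.258 and 0.804 for ionomycin and TGFb.

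Rab7b (chr1:131688695-131715439, plus strand, mm10), a separate gene whose product runs from late endosomes to the trans-Golgi, ran from 1.22 to 4.35 CPM with ionomycin (median 2.77), 4.17 to 14.97 CPM with TGFb (median 6.61) and 0.746 to 5.42 CPM with DMSO (median 1.13). PD883 was the highest line under each treatment, and within each line both TGFb libraries lay above both DMSO libraries. Rab7b rose with TGFb by 2.03 ± 0.24 (edgeR adjusted p = 9.60e-07). With ionomycin it had 3.28 and 2.27 CPM in PD454, against 1.04 and 0.871 CPM there with DMSO, a rise of 1.56 within that line (edgeR adjusted p = 0.00249), but the joint test of line dependence gave 0.0533 and the 3 lines together 0.124.

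Rab32 (chr10:10545002-10558265, minus strand, mm10), a RAB of lysosome-related organelles and mitochondria, ran from 2.12 to 7.997 CPM with ionomycin (median 3.82), 1.75 to 3.19 CPM with TGFb (median 2.56) and 5.98 to 16.1 CPM with DMSO (median 10.4). TGFb libraries lay below every DMSO library, and of the ionomycin libraries only those of PD7591, at 7.997 and 7.96 CPM, reached the DMSO range. It fell with ionomycin by 1.18 ± 0.23 (edgeR adjusted p = 0.000827) and with TGFb by 2.04 ± 0.24 (1.10e-06) on the log2 scale. Without PD883 the ionomycin value was -0.78 (0.0337). Set directly, ionomycin stood above TGFb by 0.86 ± 0.24 (edgeR adjusted p = 0.00509), which was 0.38 without PD7591 (0.170).

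Rab38, its relative in melanosome biogenesis, ran from 7.67 to 15.9 CPM with ionomycin, 9.88 to 16.8 CPM with TGFb and 6.19 to 11.9 CPM with DMSO. It rose with TGFb by 0.68 ± 0.13 (edgeR adjusted p = 0.000285), and was called higher with ionomycin at 0.36 ± 0.13 (0.0440). The ionomycin call was lost without DMSO PD454 library 13 (0.0906), DMSO PD7591 library 1 (0.0770) or 2 (0.0820), DMSO PD883 library 7 (0.0645), ionomycin PD883 library 10 (0.103) or 9 (0.0878), ionomycin PD454 library 16 (0.0507), ionomycin PD7591 library 4 (0.0517) or TGFb PD7591 library 5 (0.0510), all in edgeR. Rab32 and Rab38 thus had opposite signs under each treatment.

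Rab9, which returns receptors from late endosomes to the trans-Golgi, ran from 9.93 to 26.1 CPM with ionomycin (median 14.3), 16.1 to 40.4 CPM with TGFb (median 25.8) and 17.2 to 30.4 CPM with DMSO (median 20.2). Within each line both ionomycin libraries lay below both DMSO libraries, while the ranges overlapped over the lines. It fell with ionomycin by 0.53 ± 0.13 on the log2 scale (edgeR adjusted p = 0.00521), lost without PD454 (0.0514), and with TGFb the edgeR adjusted p was 0.0851. Rab12, which sends transferrin receptor to lysosomes, ran from 47.3 to 86.6 CPM with ionomycin, 83.4 to 135 CPM with TGFb and 64.8 to 95.1 CPM with DMSO. It was called in opposite directions, at -0.29 ± 0.08 with ionomycin (edgeR adjusted p = 0.0121, lost without PD454 at 0.127 or PD883 at 0.102) and 0.47 ± 0.08 with TGFb (0.000133). Rab34, a RAB of lysosome position and cilia, ran from 67.8 to 108 CPM with TGFb, against 41.1 to 83.7 CPM with DMSO, and rose by 0.59 ± 0.11 (edgeR adjusted p = 0.000165).

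Rab24, a RAB tied to autophagy, ran from 41.3 to 58.5 CPM with ionomycin, 32.4 to 63.0 CPM with TGFb and 32.5 to 54.8 CPM with DMSO, with edgeR adjusted p values of 0.121 and 0.202. Annotated exons of Prelid1 on the other strand cover 66.4% of those of Rab24, so its reads may be shared. Rab29 and Rab36 passed neither test against DMSO, with edgeR adjusted p values from 0.148 to 0.646.

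Among the 7 early endosome RABs, ionomycin raised 2 and lowered none, and TGFb raised 2 and lowered 1. Over all genes 17.2% rose and 16.1% fell with ionomycin, and 24.3% rose and 26.5% fell with TGFb. Rab22a, a RAB of early endosome sorting and recycling, ran from 89.6 to 117 CPM with ionomycin, 63.0 to 77.6 CPM with TGFb and 68.6 to 85.9 CPM with DMSO. Ionomycin libraries lay above all others, and Rab22a rose by 0.41 ± 0.08 (edgeR adjusted p = 0.000744; 0.0551 with duplicates summed). Rab21, a RAB of integrin uptake, was called higher with ionomycin (0.32 ± 0.11, edgeR adjusted p = 0.0275) and lower with TGFb (-0.27 ± 0.11, 0.0418), at 86.8 to 117 CPM with ionomycin, 61.2 to 79.8 CPM with TGFb and 64.7 to 95.6 CPM with DMSO. The ionomycin call of Rab21 was lost without DMSO PD454 library 14 (0.0507), DMSO PD883 library 7 (0.0570) or 8 (0.0711), ionomycin PD883 library 10 (0.0815) or ionomycin PD454 library 15 (0.0620), and without PD883 its log2 fold change was 0.17. Its TGFb call was kept in 3 of 18 such fits, those without DMSO PD883 library 7, ionomycin PD883 library 10 or ionomycin PD7591 library 4, over edgeR adjusted p values from 0.0333 to 0.168.

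Rab5b and Rab31 rose with TGFb by 0.38 ± 0.08 and 0.49 ± 0.13 (edgeR adjusted p = 0.000832 and 0.00467). Rab31, a RAB of traffic between the trans-Golgi and endosomes, lost its call without PD454 (0.0536). Rab5a and Rab5c, which direct fusion of early endosomes, passed neither test: Rab5c ran from 169.5 to 271 CPM with ionomycin, 159 to 289 CPM with TGFb and 162 to 239 CPM with DMSO, with edgeR adjusted p values of 0.576 and 0.696. Rab20, a low member tied to phagosomes, ran from 2.30 to 4.94 CPM with ionomycin, 2.32 to 6.64 CPM with TGFb and 2.36 to 3.97 CPM with DMSO and passed neither test (edgeR adjusted p = 0.586 and 0.168). The opposite-strand entry E230013L22Rik covers 25.6% of the annotated exons of Rab20, so its reads may be shared. Outside these roles, Rab23, a RAB known as an inhibitor of Hedgehog signalling, fell with ionomycin by 0.45 ± 0.13 on the log2 scale (edgeR adjusted p = 0.0131) and rose with TGFb by 0.59 ± 0.13 (0.000893). Its ionomycin call was lost without PD454 (0.118) or PD7591 (0.0807), and without PD883 its TGFb value was 0.38. Rab40c rose with TGFb by 0.31 ± 0.10 (edgeR adjusted p = 0.0189), lost without PD7591 (0.104) or PD883 (0.117). Rab28 was called lower with TGFb at -0.33 ± 0.11 (edgeR adjusted p = 0.0194), lost without DMSO PD883 library 8 (0.0553), TGFb PD7591 library 5 (0.0637) or 6 (0.0706), or TGFb PD883 library 11 (0.0530).

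Rab40b, in a group of RABs tied to ubiquitin ligases, and Rab42 passed neither test against DMSO, with edgeR adjusted p values from 0.125 to 0.861. Both stayed under 2 CPM in every library.

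In DMSO alone, 28 of the 53 RAB genes differed between the 3 lines (52.8%), against 47.9% of all genes tested (edgeR joint test, adjusted p under 0.05). The smallest adjusted p was that of Rab7b at 1.35e-05, with 5.42 and 4.14 CPM in PD883, 0.746 and 1.22 CPM in PD7591 and 1.04 and 0.871 CPM in PD454. Rab17, Rab26 and Rab27a followed at 0.000190, 0.000409 and 0.000868. Rab26 had 4.85 and 4.68 CPM in PD883, 0.693 and 0.785 CPM in PD7591 and 1.21 and 1.56 CPM in PD454. The count was 18 without DMSO PD7591 library 1 or DMSO PD883 library 7, fits in which 35.2% and 36.2% of all genes were called.

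Regulators and effectors of RABs were described from a list of 119 genes, of which 115 were tested. With ionomycin 35 rose and 5 fell, which makes 34.8%, against 33.3% of all genes tested (17.2% higher and 16.1% lower). The median log2 fold change was 0.16, against 0.11 for the RAB genes and -0.03 for all genes. With TGFb 23 rose and 46 fell, which makes 60%, against 50.7% of all genes (24.3% higher and 26.5% lower). The median was -0.10, against -0.00 for all genes. Rin1, an exchange factor for Rab5, ran from 122 to 212 CPM with ionomycin and 60.2 to 105 CPM with DMSO, and Rab11fip5, an effector of Rab11, from 103 to 203 CPM and 18.1 to 60.4 CPM. They stood clear of DMSO and rose by 1.07 ± 0.09 and 2.35 ± 0.21 (edgeR adjusted p = 1.86e-07 and 2.12e-07). Chml, the escort protein that presents RABs for prenylation, fell with ionomycin by 0.71 ± 0.10 on the log2 scale (edgeR adjusted p = 3.06e-05), at 17.9 to 25.3 CPM with ionomycin and 31.8 to 39.3 CPM with DMSO.

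Exph5, an effector of Rab27, ran from 4.22 to 9.83 CPM with ionomycin, 0 to 0.264 CPM with TGFb and 2.43 to 6.03 CPM with DMSO. Like Rab27a and Rab27b it was lower in every TGFb library than in any DMSO library, and fell by 5.64 ± 0.44 on the log2 scale (edgeR adjusted p = 6.00e-09). Madd, an exchange factor for Rab3 and Rab27, ran from 73.4 to 95.5 CPM with ionomycin and 17.1 to 26.3 CPM with TGFb, a log2 difference of 2.03 ± 0.11 (edgeR adjusted p = 1.94e-11). Rims2, another effector on the list, went the other way. It ran from 0.235 to 2.15 CPM with ionomycin, 1.80 to 7.28 CPM with TGFb and 0.567 to 2.82 CPM with DMSO. Rims2 fell with ionomycin by 0.70 ± 0.21 on the log2 scale (edgeR adjusted p = 0.0139), lost in 2 fits that left out a line. Set directly, ionomycin stood below TGFb by 1.88 ± 0.20 (edgeR adjusted p = 2.33e-07). Bicd1, a dynein adaptor for Rab6, ran from 4.32 to 9.03 CPM with TGFb and 20.4 to 41.5 CPM with DMSO, and fell by 2.19 ± 0.14 on the log2 scale (edgeR adjusted p = 4.49e-10). Micall2, an effector of Rab13 and Rab8, ran from 50.9 to 93.3 CPM with TGFb and 21.2 to 44.8 CPM with DMSO, and rose by 1.24 ± 0.11 (edgeR adjusted p = 3.75e-08).

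Promoter sequence was read for all members with an entry. In the RefSeq promoters of GRCm38.p6, 250 bases before to 50 after the annotated start, 48 of the 59 RAB genes were matched with 60 promoters. The E-box CACCTG, the letters that Zeb and Snail repressors of epithelial genes bind, was searched on both strands and stood in 10 of these 60 promoters and in 20.2% of all 32851. Of the 10 genes holding it, Rab17, Rab19 and Rab27a fell with TGFb, Rab15 and Rab23 rose, Rab22a, Rab3a, Rab5c and Rab9 were not called, and Rab25 was not tested. The AP-1 site TGACTCA stood in 3 of the 60, those of Rab15, Rab34 and Rab39b, and in 5.20% of all promoters. Of these genes Rab39b rose with ionomycin, while Rab15 and Rab34 were not called with ionomycin and rose with TGFb. In all 4 motifs were searched on both strands. The Smad palindrome GTCTAGAC stood in 1 of the 60, that of Rab15, and in 0.213% of all promoters. The E-box CACGTG stood in 6, those of Rab20, Rab21, Rab23, Rab24, Rab27a and Rab5a, and in 7.15% of all promoters. A match is a description of these letters, not of a bound site. For Rab27a 2 starts were listed, and the promoter of only 1 is printed. That sequence holds the CACCTG match of Rab27a but not its CACGTG match. The promoters of Rab27a (chr9:73044560-73044859, plus strand) and Rab17 (chr1:90967618-90967917, minus strand) are shown as examples chosen after their values were seen, because both genes fell with TGFb, with the E-box in capitals as its other strand, CAGGTG, and that of Rab39b (chrX:75578182-75578481, minus strand) because it rose with ionomycin, with the AP-1 letters in capitals as TGAGTCA.
Rab27a: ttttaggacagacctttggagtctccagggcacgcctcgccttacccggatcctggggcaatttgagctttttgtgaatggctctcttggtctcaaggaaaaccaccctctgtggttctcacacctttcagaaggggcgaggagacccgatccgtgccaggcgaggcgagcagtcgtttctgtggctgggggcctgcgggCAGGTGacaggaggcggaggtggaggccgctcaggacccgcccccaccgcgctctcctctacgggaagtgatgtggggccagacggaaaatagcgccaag
Rab17: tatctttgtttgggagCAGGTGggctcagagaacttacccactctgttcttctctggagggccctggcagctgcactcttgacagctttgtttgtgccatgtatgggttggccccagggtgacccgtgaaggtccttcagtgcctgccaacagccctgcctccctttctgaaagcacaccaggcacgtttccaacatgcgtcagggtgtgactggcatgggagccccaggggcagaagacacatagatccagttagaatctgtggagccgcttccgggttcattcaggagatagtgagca
Rab39b: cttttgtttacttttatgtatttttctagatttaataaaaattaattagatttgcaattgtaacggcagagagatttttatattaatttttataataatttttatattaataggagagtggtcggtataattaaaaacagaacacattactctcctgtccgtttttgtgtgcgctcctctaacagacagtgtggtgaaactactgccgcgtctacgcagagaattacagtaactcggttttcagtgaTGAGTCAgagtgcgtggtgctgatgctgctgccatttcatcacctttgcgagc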

How the data were processed

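RNA of 18 libraries from mouse PDAC cell lines was measured by RNA-seq. The deposited table holds raw read counts per gene, made by the authors with CASAVA, Trimmomatic 0.32, STAR and featureCounts on mm10, per the submitters' processing notes; for STAR and featureCounts no version is given there, nor the annotation or the strand setting. Per the labels, RNA came from either of 2 kits, not tied to libraries. RAB members and lists were chosen with earlier results of these data known.

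Counts were fitted with edgeR 4.0.16 in R 4.3.3: TMM factors, filterByExpr over the 9 groups (13827 of 24527 entries kept) and a robust quasi-likelihood test. The model had treatment and line; a mean per group gave effects within lines and 2-degree tests of line dependence. Benjamini-Hochberg adjustment ran over all genes, with 0.05 as threshold. The SE is the fold change over the root of its F. CPM uses TMM-scaled totals, and CPM per kb the union exon length of GENCODE M21 (mm10). Members described in each library were a panel fixed by role, the members called with a log2 fold change of at least 1 in size and 1 sign in all lines, and those with the smallest p for line dependence; of the regulators, the 3 rising and 3 falling genes with the smallest adjusted p per contrast were eligible. The fits were tested on simulated data with the same mean level in all lines and a spread taken from the fit with a mean per group. For the model with treatment and line, that test did not include differences in effect between lines. Duplicate libraries differed by more than sampling noise (chi-square per degree of freedom 4.63 to 86.2). Alternatives used DESeq2 1.42.0 and limma-voom (limma 3.58.1), other factors, no filter, no line term, summed duplicates, and left-out libraries or lines; leaving out the libraries rich in short transcripts was chosen after seeing the data.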

Additional observations from a re-analysis of the deposited data

Results flagged for a closer look

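In 3 of 102 sets of 6 libraries, 1 library stood apart from the others by the Dixon criterion. Its nominal rate of about 1 in 20 sets assumes 6 like draws, whereas each set here held 3 lines of 2 libraries. Rab1a was at 328 CPM in TGFb PD883 library 12, where the next TGFb library had 272 CPM. Rab25 was at 0.475 CPM in TGFb PD7591 library 5, where the next had 0.199 CPM, and Rab3c was at 0.0505 CPM in TGFb PD883 library 12 with the other TGFb libraries at 0. With the others at 0, any Rab3c count there would have met the criterion, and that library held 2 counts. TGFb PD883 library 12 is among the 3 libraries whose counts leaned to short transcripts; the part of this in the Rab1a and Rab3c values was not tested.

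The effect of a treatment differed between the 3 lines for 3 RAB genes in edgeR's joint test. Rab3b differed with ionomycin (adjusted p = 0.00962), and its adjusted p stayed between 0.00627 and 0.0463 with any library left out. Rab4a and Rab27b differed with TGFb (adjusted p = 0.0263 and 0.0264), and leaving out single libraries gave up to 0.141 for Rab4a and 0.102 for Rab27b.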

How the results depend on the processing

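Leaving out each library gave 14 to 20 RAB genes for ionomycin against DMSO, 29 to 34 for TGFb against DMSO, 30 to 36 for ionomycin against TGFb, 18 to 30 for lines in DMSO, and 1 to 3 (ionomycin) and 0 to 3 (TGFb) with line-dependent effects. Over all genes the shares called in these fits were, in the same order, 26.7% to 34.7%, 45.5% to 52.3%, 58.6% to 63% and 35.1% to 48%. For line-dependent effects they were 0.743% to 4.74% (ionomycin) and 2.83% to 7.5% (TGFb). For ionomycin 13 of 18 calls, for TGFb 29 of 33 and for the direct contrast 29 of 33 held with every single library out; 8, 23 and 25 also held with every line out. In the direct contrast Rab28 was lost without ionomycin PD7591 library 3 or 4, PD883 library 9, or TGFb PD7591 library 5 or 6 or PD883 library 11, and Rab42 without ionomycin PD883 library 10, PD454 library 16 or PD7591 library 4, or TGFb PD7591 library 5 or 6 or PD883 library 11 (edgeR adjusted p up to 0.0895 and 0.0998). Ionomycin against DMSO gave 7 RAB genes with no line term and 6 with duplicates summed, against 15.6% and 13.4% of all genes. The direct contrast gave 27 and 24, against 48.2% and 49% of all genes. Without the libraries rich in short transcripts, ionomycin gave 15, TGFb 27 and the direct contrast 32, against 26.8%, 49.4% and 61.7% of all genes. Without PD454, PD7591 or PD883, ionomycin gave 12, 14 and 14, against 23.9%, 23.4% and 29.5% of all genes. Asking also for a 2-fold change left 4 RAB genes for ionomycin, 12 for TGFb and 15 for the direct contrast. It left 9.76%, 21.2% and 27.7% of all genes. Line-dependent ionomycin effects numbered 2 with library totals, 4 with no filter, 6 by DESeq2 and 2 with the libraries rich in short transcripts dropped. In these fits 2.6%, 5.39%, 10.2% and 6.63% of all genes were called. Line-dependent TGFb effects numbered 4 with no filter, 4 by DESeq2 and 1 without those libraries, against 7.15%, 11% and 3.53% of all genes. Causes were not tested.

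Signs turned only for RAB genes not called. Library totals shifted the median of all genes to -0.12 for ionomycin against DMSO and -0.11 for ionomycin against TGFb, and turned the ionomycin values of Rab14 to -0.040, Rab30 to -0.076, Rab4b to -0.055, Rab1a to -0.062, Rab34 to -0.0033 and Rab5c to -0.014. For Rab43 with ionomycin, RLE factors gave 0.0067, summed duplicates 0.014, limma-voom 0.0072 and DESeq2 0.0068, and limma-voom gave -0.041 for Rab30. Without PD454, ionomycin gave Rab3b -0.53, Rab28 0.071 and Rab30 -0.47, and TGFb gave Rab7 0.020. Without PD7591, ionomycin gave Rab4b -0.058, Rab8b 0.013, Rab3d -0.045, Rab1a -0.020, Rab34 -0.025 and Rab31 0.13, and TGFb gave Rab3a -0.10 and Rab4a -0.31. Without PD883, ionomycin gave Rab43 0.25, Rab1a -0.045, Rab2b 0.016 and Rab26 0.21, and TGFb gave Rab40b 0.67, Rab5c -0.019 and Rab26 0.13. Without the libraries rich in short transcripts, ionomycin gave Rab28 0.00039, Rab30 -0.076 and Rab26 0.049, and TGFb gave Rab7 0.045. With single libraries left out, the ionomycin values ran over Rab14 -0.0072 to 0.086, Rab1a -0.0064 to 0.10, Rab26 -0.34 to 0.041, Rab28 -0.083 to 0.027, Rab30 -0.14 to 0.16, Rab43 -0.059 to 0.12 and Rab4b -0.0088 to 0.11, and the TGFb values ran over Rab3a -0.0092 to 0.17, Rab40b -0.38 to 0.20, Rab4a -0.032 to 0.19 and Rab7 -0.031 to 0.048. No paired analysis was possible because the groups share no library numbers; libraries were matched by line, the block in every fit but that with no line term. Genes under about 1 CPM, such as Rab19, Rab3c and Rab42, are limited by depth.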
